A study of Mus musculus with 18 samples.

Results

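The livers described here are 2 of the 6 liver libraries of a mouse series of 18 RNA-seq libraries, 1 from a RepB-/- and 1 from a WT liver, in which the imprinted noncoding RNA *H19* was abundant. They were chosen by a measured value: a liver library with more than 10000 counts of *H19* was placed in the H19-high set, and one with fewer than 1000 in the H19-low set, which held the other 4 libraries. *H19* had 196483 counts in RepB-/- 1 and 158730 in WT 1, and 94, 427, 34 and 22 counts in RepB-/- 2, RepB-/- 3, WT 2 and WT 3. The libraries nearest to the limits were therefore WT 1 and RepB-/- 3, and nothing lay between them. Since the libraries were selected on 1 gene and liver genes vary together, every difference between the 2 sets is a description of these libraries. The calls given below set each difference against the spread between libraries and are not a test of the sets.

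The study asked which genes depend on repeat B of *Xist*, the noncoding RNA that silences one X chromosome in female cells. Polyadenylated RNA was sequenced from brain, liver and primary MEFs (mouse embryonic fibroblasts) of RepB-/- mice, which are homozygous for a deletion of repeat B made with CRISPR/Cas9 in zygotes, and of WT mice, with 3 libraries for each tissue and genotype. The titles give only the letter B or W, read here as RepB-/- and WT, and the H19-high livers are the libraries numbered 1 of both letters. The H19-low set was 2 RepB-/- and 2 WT livers, so that each set held both labelled genotypes in equal number. The labels give no age, sex, strain, litter or time of collection for any liver and do not say whether the libraries came from separate animals, so that age and any other property shared by both libraries numbered 1 cannot be told apart. No treatment is given for any library, and the deletion is in every cell of a RepB-/- mouse.

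The liver is the main site of blood formation in the fetus and hands this role to the bone marrow around birth, while its hepatocytes stop dividing and take up adult functions. *H19*, *Igf2*, *Dlk1*, *Afp* and *Gpc3*, which are strongly expressed in the fetal liver, are silenced in the weeks after birth. Genes for drug metabolism, conjugation, bile acid uptake and fat synthesis from carbohydrate come on step by step between birth, weaning and puberty, and sexual maturity then sets the sex-biased genes through the pulses of growth hormone.

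The 6 liver libraries held 37682201 to 51542709 counts, and their 20 most abundant genes took 27.4% to 40.9% of the counts. On the first principal component, with 57.9% of the variance, RepB-/- 1 and WT 1 lay at -123.4 and -105.5 and the H19-low livers at 41.9 to 71.7. RepB-/- 2 stood apart in its sex-linked genes: it had 4 counts of *Xist* and 1527, 1669, 708 and 438 counts of the Y-linked *Ddx3y*, *Eif2s3y*, *Kdm5d* and *Uty*, of which the other 5 livers had at most 1 count. The labels give no sex, so a male liver and a mixed-up library cannot be told apart, and the whole-gene count of *Xist* does not check the repeat B genotype of any library. Counts of sex-biased genes, and folds that rest mostly on it, are given with and without it. Pairs of libraries had 34.3% to 73.0% of genes more than 1.2-fold apart (43.6% for RepB-/- 1 against WT 1), which was not compared with sampling noise. Each library was counted as a separate sample, which neither these shares nor the labels settle.

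Checked against its defining genes, the H19-high set carried part of a fetal liver profile. Levels are given as CPM (counts scaled to library size with TMM factors) for RepB-/- 1 and WT 1, and then for RepB-/- 2, RepB-/- 3, WT 2 and WT 3. *Igf2*, the fetal insulin-like growth factor, stood at 1474 and 759.7 CPM against 0.916, 1.49, 0.958 and 0.804 CPM, and *Afp*, the albumin-like carrier of fetal plasma, at 504 and 367 CPM against 4.22, 6.04, 6.06 and 2.79 CPM. *Dlk1*, a marker of fetal hepatoblasts, reached only 245 and 51 counts in the H19-high livers, 4.82 and 1.13 CPM, against a total of 2 counts in the 4 H19-low livers, all of them in WT 3. Genes outside these markers were also looked at. The embryonic globins *Hbb-y*, *Hbb-bh1* and *Hba-x* and the fetal RNA-binding protein gene *Lin28b* had 0 counts in all 6 livers. They therefore do not separate the sets. The hepatocyte genes *Alb*, *Ttr* and *Apoa1* were abundant in all 6 livers. The libraries are therefore named by *H19* and no age is assigned to them. *Hbb-y*, *Hbb-bh1*, *Hba-x*, *Lin28b* and *Apoa1* were named after their values had been seen.

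*Alb* and *Afp* are neighbours that derive from one ancestral gene, and are shown here because the H19-high livers had both RNAs and the H19-low livers had *Alb* with little *Afp*. The 120 bases before each start site are from RefSeq on GRCm38.p6, plus strand, chr5:90460750-90460869 for *Alb* and chr5:90490594-90490713 for *Afp*, with the HNF1 half-site GTTAAT in capitals.
Alb: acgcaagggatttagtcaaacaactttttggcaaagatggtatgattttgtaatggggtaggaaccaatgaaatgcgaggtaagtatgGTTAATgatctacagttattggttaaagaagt
Afp: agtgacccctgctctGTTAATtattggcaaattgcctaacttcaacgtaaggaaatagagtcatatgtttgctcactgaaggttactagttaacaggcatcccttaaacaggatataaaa
The exact half-site began 32 bases before the RefSeq start site of *Alb* and 105 bases before that of *Afp*. Variant HNF1 sites were not searched for and are not marked, so these distances do not place all HNF1 sites of either stretch. Searched on both strands in windows of 300 bases, GTTAAT was in 7.10% of 32851 promoters. By gene it was in 8.24% of 27025, and in 48.1% of the 27 plasma protein genes with a promoter in the table. It was in 1 of 11 fetal hepatocyte genes (9.09%), near the share of all genes. Other lists described below had it in 28.6% (periportal), 23.8% (suckling to weaning), 21.4% (conjugation), 19.5% (P450) and 0% (erythroid) of genes. A link of the half-site to the differences between the sets was not tested. *Alb* stood at 113040 and 81549 CPM against 89098, 163220, 120500 and 102020 CPM, with RepB-/- 1 inside the range of the H19-low livers and WT 1 just below it, and the log2 difference was -0.30 ± 0.39 (SE). *Afp* was 91.2-fold higher in the H19-high livers, and the lowest of them was above the highest H19-low liver.

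**Figure D1:**
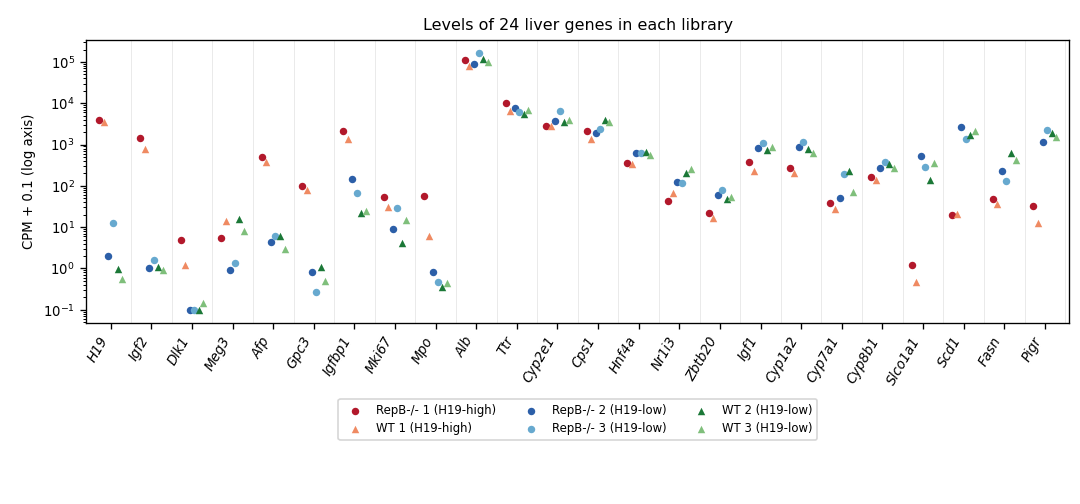
CPM plus 0.1 (log axis) of 24 genes in each of the 6 liver libraries, circles for RepB-/- and triangles for WT, red and orange for the H19-high livers. The 2 H19-high points lie above the others for H19, Igf2, Dlk1, Afp, Gpc3 and Igfbp1, among or close to them for Alb, Ttr and Meg3, and below them for Slco1a1, Scd1 and Pigr.

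Over all genes, 17030 of 51826 had enough counts to be fitted with edgeR, with genotype as a covariate. A gene is called where its Benjamini-Hochberg adjusted p was under 0.05, and the share of all genes called is given as the background. In the H19-high livers 1491 genes (8.76%) were called higher and 1161 (6.82%) lower, and the median log2 difference over all tested genes was 0.00. Since the rule used this contrast, these shares and the counts of the lists below are descriptions. Of the called genes, 598 were more than 4-fold higher and 412 more than 4-fold lower. Both H19-high livers lay above all H19-low livers for 4041 of the 17030 tested genes and below all of them for 3561. A lack of overlap given below for single genes is therefore common among all genes. The counts rest on both H19-high livers: 266 genes were called higher and 310 lower without RepB-/- 1, and 199 and 202 without WT 1. Without WT 2 they were 697 and 476, without WT 3 606 and 439. Among the 265 called genes that are named or on a list below, 71 kept their call with each library left out in turn and none changed direction. In bulk tissue, fewer cells of a type and less RNA per cell cannot be told apart.

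The difference was also taken within each genotype, RepB-/- 1 against RepB-/- 2 and 3 and WT 1 against WT 2 and 3, which share no library. It had one sign in both genotypes for 12645 of 17030 genes (74.3%). All libraries of one tissue share what sets liver genes against each other, and genes are not independent, so this share is given without a test.

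**Figure D2:**
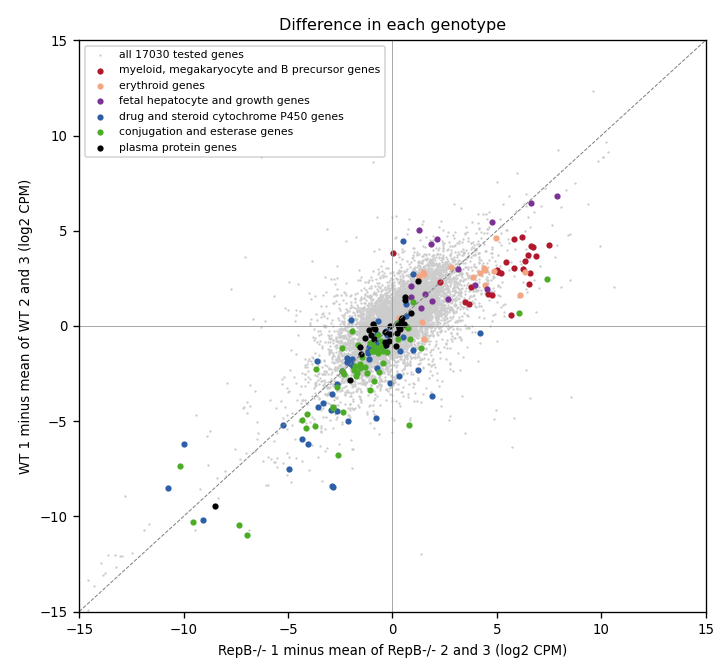
Log2 CPM difference of RepB-/- 1 from the mean of RepB-/- 2 and 3 (x axis) against that of WT 1 from the mean of WT 2 and 3 (y axis) for the 17030 tested genes (grey) and 6 lists (colours), with the line of equality dashed. P450 and conjugation genes lie toward the lower left, fetal hepatocyte genes toward the upper right, and the myeloid and erythroid genes farther to the right than up, with more of them in RepB-/- 1 than in WT 1.

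Most fetal hepatocyte genes were higher in the H19-high livers. Of 18 fetal hepatocyte and growth genes, 15 were tested and 10 were called higher, none lower, with a median log2 difference of 3.05 and summed levels of 1385 and 1159 CPM against 71.5 to 235 CPM. The count of higher genes was 5 without RepB-/- 1 and 6 without WT 1. *Gpc3*, a cell-surface glypican that binds growth factors, stood at 97.8 and 78.1 CPM against 0.717, 0.175, 0.984 and 0.402 CPM (log2 difference 7.27 ± 0.53). *Bex1*, a small protein gene of precursor cells, reached 8.85 and 6.24 CPM against 0.199, 0.379, 0.0259 and 0.233 CPM. Neither gene overlapped between the sets. *Igf2bp3*, an RNA-binding protein of *Igf2* mRNA, stood at 24.2 and 23.1 CPM against 4.32, 6.97, 0.802 and 1.12 CPM, with more in RepB-/- 2 and 3 than in WT 2 and 3. *Lpl*, the lipoprotein lipase that fetal and suckling liver makes and adult liver largely stops making, stood at 487 and 556 CPM against 154, 116, 26.4 and 29.3 CPM with the same order among the H19-low livers. *Pkm*, the pyruvate kinase of growing cells, was at 90.2 and 61.5 CPM against 18.8 to 33 CPM. *Scd2*, a desaturase of growing tissues, was at 28.9 and 24.5 CPM against 6.54 to 10.4 CPM. Both H19-high livers were above every other liver for each of these genes. *Cd24a* was far from alike in the H19-high livers, with 75.4 and 7.28 CPM against 1.53 to 6.42 CPM. *Hmga1* had the smallest log2 difference of the list at 1.17, and the overlapping gene *AI413582* may share its reads. The calls of *Gpc3*, *Pkm* and *Igf2* held in each fit that left out 1 library, and the other calls given here were lost in at least 1 such fit. *Bex1*, *Igf2bp3*, *Lpl*, *Pkm*, *Scd2* and *Cd24a* were named after their values had been seen.

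Many imprinted genes form a network that slows or drives growth before weaning and is shut down together after it. Of 16 members, all tested, 9 were called higher and none lower, with a median log2 difference of 2.04. *H19* itself set the groups, and without it 8 of 15 were called higher with a median of 1.93. *H19* and *Igf2*, which share an imprinting control region, led the list, *Igf2* with a log2 difference of 10.02 ± 0.32. *Dlk1* was next, a ligand-like membrane protein of precursor cells. *Peg10* followed with 4.07 and 4.66 CPM against 0.279, 0.204, 0.233 and 0.127 CPM. *Grb10*, an inhibitor of insulin and growth factor receptors, stood at 73.9 and 95.1 CPM against 7.96, 5.08, 5.98 and 5.99 CPM. *Peg3*, a zinc finger gene, had 130.0 and 142 CPM against 10.6, 22.4, 9.03 and 12.8 CPM. Both H19-high livers lay well above every other liver for these genes. *Cdkn1c*, a brake on the cell cycle, stood at 14 and 13.5 CPM against 1.11, 2.36, 2.72 and 3.2 CPM. *Mest* reached 36 and 39.9 CPM against 6.81, 12.1, 7.14 and 8.4 CPM, again without overlap. The noncoding RNAs of the *Dlk1* locus did not follow *Dlk1*. *Meg3* stood at 5.33 and 14.3 CPM against 0.836, 1.28, 15.8 and 8.11 CPM (log2 difference 1.37 ± 0.53, no call), with the highest value in WT 2. *Rian* had 5.56 and 10.6 CPM against 0.498, 0.992, 9.47 and 5.63 CPM, also without a call. Both were low in RepB-/- 2 and 3 and not in WT 2 and 3. *Gnas* and *Slc38a4* also had no call, with log2 differences of 0.05 and -0.43. *Igf2*, *Peg10*, *Grb10*, *Peg3* and *H19* kept their calls with every single library left out, and every other call named was lost in 1 or more. *Peg10*, *Grb10*, *Peg3*, *Mest*, *Rian* and *Gnas* were named after their values had been seen.

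In the insulin-like growth factor system, 3 of 5 binding protein genes were higher in the H19-high livers, and *Igf1* and the growth hormone receptor were low. Of 20 genes, all tested, 5 were called higher and 5 lower, with a median of 0.22. The higher genes were 3 without RepB-/- 1 and 3 without WT 1, and the lower genes 0 without RepB-/- 1, 1 without WT 1, 3 without WT 2 and 1 without WT 3. Among the binding proteins, *Igfbp1*, which insulin represses, stood at 2137 and 1354 CPM against 143, 65.3, 21.6 and 25.1 CPM (log2 difference 5.17 ± 0.47). *Igfbp2*, the main binding protein of the fetus, had 2478 and 2134 CPM against 193, 139.5, 162 and 76.1 CPM. *Igfbp3*, the main one of adult blood, was at 146 and 125 CPM against 57.3 to 67.3 CPM. All 3 were higher in both H19-high livers than in any other. *Igfbp4* and *Igfbp5* had no call, with log2 differences of 0.30 and 0.72. *Igf1*, the hormone that carries much of the effect of growth hormone, stood at 368 and 228 CPM against 816, 1079.8, 742 and 854 CPM (log2 difference -1.58 ± 0.25), with both H19-high livers below all others. The growth hormone receptor *Ghr* stood at 234 and 157 CPM against 428, 387, 339 and 359 CPM. *Igfals*, the subunit that keeps IGF complexes in the blood, stood at 132 and 109 CPM against 221, 174, 326 and 285 CPM with no call (log2 difference -1.01 ± 0.28). The receptors *Prlr*, *Egfr* and *Lifr* were all below the range of the H19-low livers, with log2 differences of -1.88, -2.74 and -1.63, whereas *Igf1r*, which adult hepatocytes hardly express, was at 7.04 and 4.6 CPM against 1.94 to 2.31 CPM. *Stat5b* and *Jak2*, which relay the growth hormone signal, had log2 differences of 0.09 and 0.18 and no call. Leaving out any 1 library kept the calls of *Igfbp1* and *Igfbp2*, unlike the other calls named. *Igfbp2*, *Igfbp3*, *Igfbp4*, *Igfbp5*, *Lifr*, *Igf1r*, *Stat5b* and *Jak2* were named after their values had been seen.

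Most myeloid, megakaryocyte and B precursor genes were higher in both H19-high livers, and much more so in RepB-/- 1. Of 25 myeloid, megakaryocyte and B precursor genes, 24 were tested and 22 called higher, with a median log2 difference of 4.76 (4.63 with genes at 0 set at the limit of 3 counts a library). That count was 3 without RepB-/- 1 and 14 without RepB-/- 2. Without *Lcn2*, which hepatocytes also make in inflammation and which stood at 60.7 and 824 CPM, the summed level of the list was 924 and 91.8 CPM against 26, 13.4, 12.8 and 15.3 CPM, so WT 1 lay above all H19-low livers and far below RepB-/- 1. *Mpo*, the peroxidase of neutrophil granules, stood at 57.2 and 6.13 CPM against 0.717, 0.379, 0.259 and 0.339 CPM (log2 difference 5.70 ± 0.55). *S100a8*, a calcium-binding protein of neutrophils, stood at 72.4 and 7.68 CPM against 1.41, 0.584, 0.673 and 1.29 CPM. The granule protein gene *Camp* had 52.2 and 4.11 CPM against 0.458, 0.117, 0.104 and 0.275 CPM. In each, WT 1 lay between RepB-/- 1 and the H19-low livers. *Pf4*, a platelet chemokine, stood at 26.5 and 5.08 CPM against 1.07, 0.525, 0.906 and 0.508 CPM. *Rag1*, which recombines antigen receptor genes in B and T precursors, stood at 5.29 and 0.533 CPM and 0 counts in each H19-low liver, at least 40.4-fold higher against a limit of 3 counts a library. *Igll1*, the surrogate light chain of B precursors, was also at 0 in the H19-low livers and at 1.93 and 0.422 CPM (at least 16.3-fold). *Mpo* stayed called whichever 1 library was left out, and the other calls given here were lost in at least 1 such fit. *Lcn2*, *Camp*, *Pf4* and *Igll1* were named after their values had been seen.

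The erythroid genes split in a different way. Of 27 genes 24 were listed and 17 tested, and 13 were called higher with a median of 3.78. The higher erythroid genes were 3 without the genotype term, 5 without RepB-/- 1 and 3 without WT 1. The adult globins, which red cells in unwashed blood also carry, summed to 4317 and 1576 CPM against 2111, 1349, 292 and 214 CPM, so WT 1 lay inside the range of the H19-low livers and RepB-/- 1 above it. *Hba-a1* stood at 1591 and 568 CPM against 720.0, 467, 94.7 and 66.1 CPM, called higher in the fit with genotype although the sets overlap. Without the globins the list summed to 246 and 52.3 CPM against 149, 52.6, 23.6 and 48.3 CPM, again with only RepB-/- 1 above the rest. *Slc4a1*, the anion exchanger of red cells, stood at 57.2 and 2.73 CPM against 1.47, 2.22, 0.0518 and 0.0847 CPM. *Hemgn*, a nuclear protein gene of red cell precursors, had 8.28 and 0.289 CPM against 0.239, 0.233, 0 and 0 CPM. *Alas2*, the first enzyme of erythroid heme synthesis, stood at 91.8 and 36.3 CPM against 139.8, 38, 17.9 and 42.4 CPM (log2 difference 0.16 ± 0.55, no call). *Rhag* and *Epb42*, with 4.48 and 0.133 CPM and 4.54 and 0.0888 CPM, did not pass the count filter. It asks for enough counts in as many libraries as the smaller set holds. In all 6 fits with 1 library left out, *Slc4a1* stayed called, and every other call named was lost in 1 or more. *Slc4a1*, *Hemgn*, *Rhag* and *Epb42* were named after their values had been seen.

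Among mature lymphocyte genes, 27 of 28 were tested, 9 called higher and 3 lower, with a median of 1.26, beside 8.76% and 6.82% of all genes. The higher genes were 0 without RepB-/- 1, 4 without RepB-/- 2, 4 without RepB-/- 3, 1 without WT 1, 3 without WT 2 and 2 without WT 3, and the lower genes 1 without RepB-/- 1, 1 without RepB-/- 2 and 1 without WT 1. The 3 lower genes were those of switched antibodies. *Ighg1*, the IgG1 heavy chain, had 0 counts in both H19-high livers against 5.1, 3.03, 3.36 and 2.2 CPM (at least 54.5-fold lower). *Igha*, the IgA heavy chain, stood at 2.61 and 0.688 CPM against 18.6, 8.69, 14.7 and 5.5 CPM. *Ighg2c*, the IgG2c heavy chain, had 0 and 0.111 CPM against 0.796, 0.963, 5.46 and 0.953 CPM. *Ighm*, the unswitched IgM heavy chain, was higher, at 102 and 19.4 CPM against 6.35, 7.76, 4.35 and 6.67 CPM. The B cell gene *Ms4a1*, which encodes CD20, was at 3.28 and 1.15 CPM against 0.259, 0.117, 0.44 and 0.275 CPM. *Pigr*, the receptor that carries IgA into bile, stood at 32.1 and 12.2 CPM against 1182, 2197, 1938 and 1544 CPM (log2 difference -6.38 ± 0.59). The calls of *Ighg1* and *Pigr* held in each fit that left out 1 library, unlike the other calls named. *Igha*, *Ighg2c* and *Ighm* were named after their values had been seen.

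**Figure D3:**
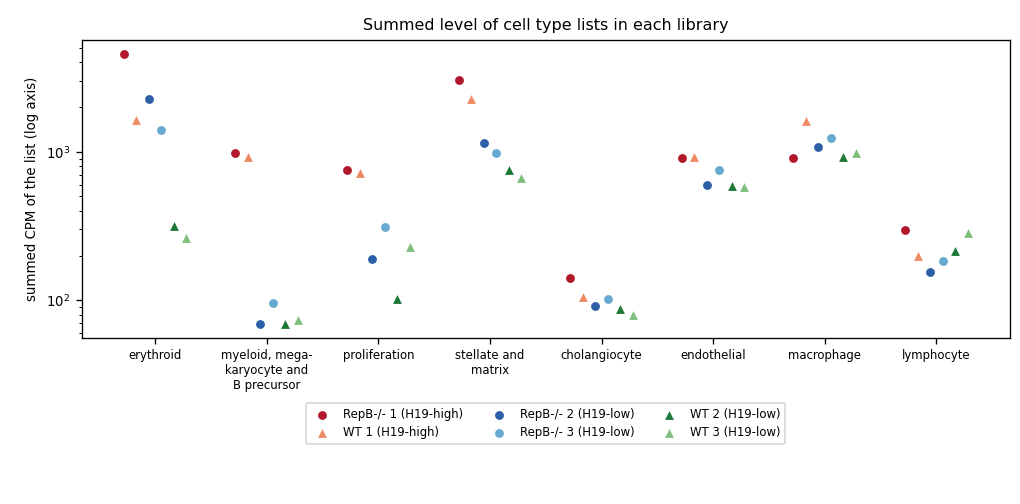
Summed CPM (log axis) of 8 lists in each liver library, circles for RepB-/- and triangles for WT, red and orange for the H19-high livers. Both H19-high livers lie above the others for proliferation, stellate and matrix, endothelial and myeloid genes and narrowly for cholangiocyte genes, only RepB-/- 1 does for erythroid genes, and the myeloid sum of WT 1 (916 CPM) is mostly Lcn2 (824 CPM).

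Genes of DNA replication were higher in both H19-high livers, while several genes of mitosis overlapped RepB-/- 3. All 30 proliferation genes were tested, 11 were called higher and none lower, with a median of 1.84. Called higher were 21 with DESeq2, 5 without RepB-/- 1 and 1 without WT 1. The 6 genes *Mcm2* to *Mcm7*, subunits of the helicase that opens DNA for replication, were all called higher and summed to 251 and 332 CPM against 58.2, 63.2, 34.2 and 61.2 CPM. *Mcm5* stood at 53.1 and 71.4 CPM against 10.5, 9.37, 3.03 and 9.53 CPM (log2 difference 2.99 ± 0.45). *Rrm2*, which makes deoxynucleotides, had 33.8 and 30 CPM against 5.61, 5.86, 1.55 and 6.03 CPM. *Pcna*, the clamp of the replication machinery, was at 60.4 and 70.8 CPM against 21.4, 24.9, 17.6 and 19.1 CPM. None of these overlapped between the sets. *Mki67*, a marker of dividing cells, stood at 54 and 30.2 CPM against 9.08, 28.4, 4.01 and 15.2 CPM, close to one another in WT 1 and RepB-/- 3, with a log2 difference of 1.59 ± 0.58 and no call. The kinase *Plk1*, which acts in mitosis, stood at 11.7 and 8.77 CPM against 3.42, 14.4, 0.569 and 4.91 CPM, highest in RepB-/- 3 and without a call. *Top2a*, a topoisomerase of dividing cells, had 48.4 and 35.6 CPM against 7.11, 13.2, 1.86 and 12 CPM, with no overlap and no call. *Mcm2* kept its call with every single library left out, and the other calls given here were lost in at least 1 such fit. *Mcm2*, *Mcm7*, *Rrm2*, *Pcna* and *Plk1* were named after their values had been seen.

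Matrix genes were the cell type group, beside blood, in which most members were higher. Of 26 stellate cell and matrix genes, all tested, 18 were called higher and 1 lower, with a median of 1.42 and summed levels of 3032 and 2282 CPM against 661 to 1149 CPM. Called higher were 10 without RepB-/- 1, 3 without WT 1 and 10 without WT 3. *Eln*, which encodes elastin, stood at 349.8 and 289.5 CPM against 34.6, 29.3, 10.4 and 10.2 CPM (log2 difference 4.18 ± 0.32). *Col1a1*, the main fibrillar collagen, stood at 169 and 96.2 CPM against 28.5, 21.9, 6.65 and 8.04 CPM (log2 difference 3.25 ± 0.26). *Col3a1*, its partner in young connective tissue, had 659 and 419.5 CPM against 171, 71.7, 49.5 and 49 CPM (log2 difference 2.78 ± 0.36), in both cases with RepB-/- 2 highest among the H19-low livers. *Lrat*, the vitamin A storage enzyme that marks quiescent stellate cells, stood at 20.5 and 13.4 CPM against 18.9, 16.5, 20.3 and 14.7 CPM with no call (log2 difference -0.08), as did the proteoglycan *Dcn* at 208 and 174 CPM against 148 to 215 CPM. The one lower gene was *Rgs5*, a gene of pericytes, at 43.9 and 25 CPM against 64.4, 104, 48.7 and 41.9 CPM. Leaving out any 1 library kept the calls of *Eln* and *Col1a1*, and every other call named was lost in 1 or more. *Lrat* and *Dcn* were named after their values had been seen.

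Other non-parenchymal groups differed less. Of 21 endothelial genes 7 were called higher and none lower, with a median of 0.72. The endothelial count was 11 with DESeq2, 1 without RepB-/- 1, 11 without RepB-/- 3, 1 without WT 1, 2 without WT 2 and 1 without WT 3. *Cd34*, found on vessels and blood precursors, had the largest log2 difference, 2.29, while *Stab2*, a scavenger receptor of the sinusoids, had no call at 95.4 and 111 CPM against 73.8, 92.3, 69.1 and 66.1 CPM. *Clec4g*, a lectin of the same cells, was at 53.3 and 58.1 CPM against 53.9 to 62.1 CPM and had none either. Of 21 macrophage genes 3 were called higher, beside 8.76% of all genes, and none lower, with a median of 0.27. The macrophage count was 1 without RepB-/- 2, 1 without RepB-/- 3, 0 without WT 1, 1 without WT 2 and 0 without WT 3, and this median turned to -0.35 without WT 1. *Clec4f*, which marks Kupffer cells, stood at 69.2 and 102 CPM against 142, 101, 133 and 147 CPM with no call. *Marco*, a scavenger receptor, had 52.6 and 340.0 CPM against 12.6, 29.5, 8.26 and 8.51 CPM, highest in WT 1. Of 14 cholangiocyte genes 12 were tested and only *Epcam*, at 4.8 and 3.66 CPM against 1.01 to 1.27 CPM, was called, higher, beside 8.76% of all genes. *Krt19*, a keratin of bile ducts, stood at 5.88 and 2.55 CPM against 1.89, 0.35, 2.8 and 1.19 CPM without a call. The share of these cell types in the differences of hepatocyte genes was not tested. Each call named here was lost without at least 1 library, with its direction kept. *Clec4g* and *Epcam* were named after their values had been seen.

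Most plasma protein genes, many but not all of which hepatocytes express before birth, had no call. Of 32 genes, all tested, 1 was called higher and 6 lower, with a median of -0.36, and the list summed to 256630 and 226010 CPM against 232140 to 296650 CPM. The lower genes include *Mup3* and *Mup20*, which are described with their family below. *Ttr*, the carrier of thyroid hormone, stood at 10234 and 6606 CPM against 7670, 6129.7, 5409.5 and 6855 CPM (log2 difference 0.34 ± 0.27, no call), and the apolipoprotein genes *Apoe* and *Apob* had log2 differences of 0.11 and -0.41 and no call. The lower plasma protein genes were 2 without RepB-/- 1, 1 without WT 1, 3 without WT 2 and 3 without WT 3, and the higher ones 4 with DESeq2, 0 without RepB-/- 1, 2 without RepB-/- 2, 0 without RepB-/- 3, 0 without WT 1, 0 without WT 2 and 0 without WT 3. *Apoc3*, which slows the clearance of triglycerides, stood at 209.8 and 139.6 CPM against 1083, 691, 914 and 1102 CPM (log2 difference -2.45 ± 0.34). The clotting factor gene *F9* had 85.8 and 77.4 CPM against 166, 359.7, 238 and 193 CPM, in each case with both H19-high livers below all others. *Serpina1c* and *Serpina1e*, 2 of 5 near-identical antitrypsin genes between which reads can be split, were called lower as well. The one higher gene was *Hp*, the hemoglobin scavenger haptoglobin, an acute-phase gene, at 4761 and 11800 CPM against 3019, 1368, 2302 and 2298 CPM, where WT 1 had more than RepB-/- 1. Apart from *Mup3*, none of the calls of this list held in all 6 fits that left out 1 library, and none changed direction. *Apoe*, *Apob*, *Apoc3*, *F9*, *Serpina1c* and *Serpina1e* were named after their values had been seen.

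Major urinary protein genes were nearly silent in the H19-high livers. These pheromone carriers are made by the liver from puberty and come from a cluster of near-identical genes on chromosome 4, so the reads of single genes are uncertain. Of 21 *Mup* genes listed 20 were tested and 18 called lower, and 10 of the tested genes had 0 counts in both H19-high livers. The summed counts of the family were 68 and 12 against 850943, 384942, 392245 and 583057, which is 1.34 and 0.267 CPM against 10150 to 16940 CPM. *Gm21320*, *Mup10*, *Mup7*, *Mup13*, *Mup14* and *Mup16* were at 0 in both H19-high livers, and *Gm21320* stood at 1882 to 2629 CPM in the others, at least 36990-fold more against a limit of 3 counts a library. These genes passed the count filter only through the H19-low livers. *Mup20*, the male signal darcin, stood at 0.334 and 0 CPM against 354, 54.6, 31 and 32.7 CPM, highest in RepB-/- 2. Its mean was 707-fold lower in the H19-high livers, and 236-fold without RepB-/- 2. *Mup3* had 0.963 and 0 CPM against 3694, 1822, 2827 and 3638 CPM. The calls of *Mup3*, *Gm21320*, *Mup10*, *Mup7*, *Mup13*, *Mup14* and *Mup16* held in each fit that left out 1 library, and every other call named was lost in 1 or more.

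Many cytochrome P450 genes, whose enzymes oxidise drugs and steroids, were low. Of 52 genes 51 were listed and tested, 23 were called lower and none higher, with a median of -1.83 and summed levels of 10128 and 8518 CPM against 29059 to 32334 CPM. The count of lower P450 genes was 9 without RepB-/- 1, 9 without WT 1, 15 without WT 2 and 15 without WT 3. *Cyp2c38* had 0.275 and 0.133 CPM against 86.3, 334, 209 and 201 CPM. *Cyp2c29*, abundant in adult liver, had 301 and 165 CPM against 2871, 1765, 1802 and 2077 CPM (log2 difference -3.24 ± 0.35), and for each both H19-high livers lay far below the others. *Cyp2f2*, a periportal P450, stood at 99.6 and 18.8 CPM against 2188, 1828, 1071 and 1241 CPM. *Cyp3a11*, the main adult drug-metabolising enzyme of its family, stood at 1296 and 1295 CPM against 7494, 3627, 4122 and 6275 CPM (log2 difference -2.05 ± 0.41). *Cyp1a2*, which oxidises caffeine, had 265 and 209 CPM against 886, 1140.4, 763 and 614 CPM (log2 difference -1.83 ± 0.24). *Cyp2e1*, which oxidises ethanol, stood at 2888 and 2763 CPM against 3622, 6414, 3506 and 3895 CPM: both H19-high livers were the lowest, with no call and a log2 difference of -0.61 ± 0.32. *Cyp3a16*, known as a fetal and neonatal gene of the Cyp3a family, stood at 273 and 209 CPM against 2.43, 87.8, 326 and 229 CPM with no call, highest in WT 2 and nearly absent from RepB-/- 2. *Cyp4a31* had the highest log2 difference of the list, 1.82, without a call. *Cyp2c38*, *Cyp2c29* and *Cyp2f2* kept their calls with every single library left out, unlike the other calls named. *Cyp2c38*, *Cyp2c29* and *Cyp2f2* were named after their values had been seen.

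Many genes of conjugating enzymes and esterases were low as well. Of 55 genes, all tested, 28 were called lower and none higher, with a median of -1.83 and summed levels of 6725 and 4991 CPM against 13765 to 19966 CPM. Called lower were 18 without RepB-/- 1, 12 without WT 1, 16 without WT 2 and 16 without WT 3. The esterase *Ces1f* was nearly absent from the H19-high livers, with 0.708 and 0.333 CPM against 685, 472, 474 and 492 CPM (log2 difference -10.03 ± 0.44). *Ces3b*, of the same family, had 2.42 and 0.155 CPM against 541, 292, 264 and 298 CPM. By contrast the related *Ces1c*, a plasma esterase, stood at 2143 and 1558 CPM against 3339 to 3736 CPM. Among glutathione transferases *Gstm3* had 14 and 2.91 CPM against 203, 165, 109 and 113 CPM. Among glucuronidating enzymes *Ugt2b38* had 9.5 and 6.11 CPM against 56.9, 20.9, 26.1 and 36.7 CPM. *Sult5a1*, a sulfotransferase, stood at 1.85 and 0.799 CPM against 23.5, 47.6, 32.9 and 37 CPM. The aldehyde oxidase *Aox1* was at 4.64 and 4.17 CPM against 136, 65.6, 108 and 154 CPM. No H19-high liver reached the level of an H19-low liver for these 4 genes, as held for 3561 of all 17030 tested genes. *Sult2a1*, whose reads may be split with its close copies, stood at 385 and 250.3 CPM against 0.0398, 59.3, 128 and 16.6 CPM, the highest log2 difference of the list (2.85), with no call. Leaving out any 1 library kept the calls of *Ces1f*, *Ces3b*, *Gstm3*, *Sult5a1* and *Aox1*, and the other calls given here were lost in at least 1 such fit. *Ces1f*, *Ces3b*, *Ces1c*, *Gstm3* and *Aox1* were named after their values had been seen.

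**Figure D4:**
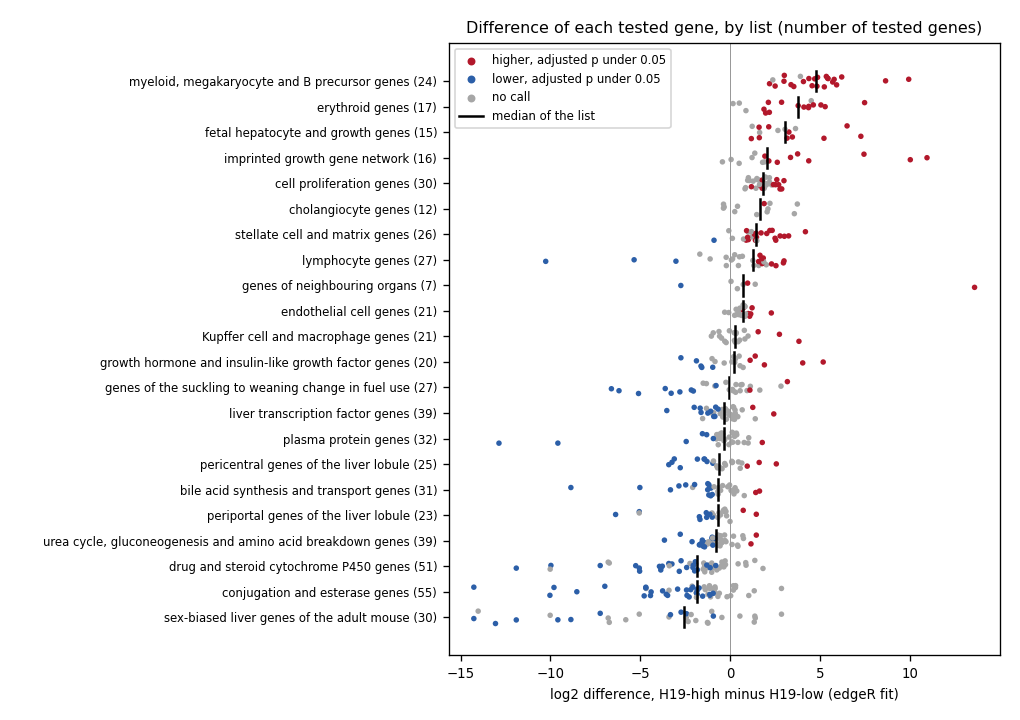
Log2 difference, H19-high minus H19-low, of each tested gene in the edgeR fit (x axis), grouped in 22 lists ordered by their median (black bar), with genes called higher in red, lower in blue and without a call in grey. Myeloid and erythroid lists have the highest medians and the sex-biased, P450 and conjugation lists the lowest, while the plasma protein, macrophage and fuel lists centre near 0.

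Several bile acid uptake carriers were low and the sterol exporter high in the H19-high livers. Of 31 genes, all tested, 2 were called higher and 13 lower, with a median of -0.68. The lower genes were 4 without RepB-/- 1, 3 without WT 1, 6 without WT 2 and 6 without WT 3. *Cyp7a1*, the rate-limiting enzyme of the main synthetic pathway, stood at 37.5 and 26.7 CPM against 49.5, 199, 229.9 and 69.2 CPM, with both H19-high livers lowest, a wide spread of the others and no call (log2 difference -2.09 ± 0.73). *Cyp8b1*, which sets the share of cholic acid, stood at 162 and 137 CPM against 276, 381, 329 and 276 CPM (log2 difference -1.08 ± 0.23). *Cyp27a1*, at the start of the alternative pathway, stood at 39.7 and 41 CPM against 329, 189.6, 327 and 329 CPM. *Baat*, which joins bile acids to taurine, was at 40.5 and 32 CPM against 165 to 257 CPM. Genes of several steps of synthesis were thus lower. Among uptake carriers, *Slco1a1* stood at 1.12 and 0.377 CPM against 529, 279.8, 139.9 and 360.3 CPM (log2 difference -8.86 ± 0.73). *Slco2b1*, of the same family, had 4.78 and 4.44 CPM against 144, 127, 174 and 162 CPM. The sodium-dependent carrier *Slc10a1* had 118 and 119 CPM against 216, 388, 270.4 and 215 CPM. None of the 3 overlapped between the sets. *Slco1a4*, by contrast, stood at 63.5 and 41.3 CPM against 41.4, 54.6, 41.5 and 40.7 CPM without a call. The export pump of the canaliculus, *Abcb11*, was at 161 and 158 CPM against 294 to 496 CPM. The 2 higher genes of 31, beside 8.76% of all genes called higher, were *Abcg5* and *Abcg8*. They form the sterol exporter together and lie side by side with shared reads possible. *Abcg8* had 214 and 102 CPM against 77.2, 57.2, 32.8 and 34.9 CPM. *Baat*, *Slco1a1* and *Slco2b1* stayed called whichever 1 library was left out, and every other call named was lost in 1 or more. *Cyp27a1*, *Baat*, *Slco2b1*, *Slc10a1*, *Abcb11* and *Abcg5* were named after their values had been seen.

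Most genes of the urea cycle had no call, and part of those of amino acid breakdown were lower. Of 39 genes, all tested, 2 were called higher and 14 lower, with a median of -0.78. The lower genes were 8 without RepB-/- 1, 1 without WT 1, 5 without WT 2 and 4 without WT 3. *Cps1*, the entry enzyme of the urea cycle, stood at 2101 and 1335 CPM against 1899.5, 2365, 3938 and 3488 CPM with no call (log2 difference -0.69 ± 0.39). *Ass1*, a later enzyme of the cycle and called lower, had 1373 and 644 CPM against 2346, 3152, 4344 and 3343 CPM. *Prodh*, which breaks down proline, stood at 12.1 and 5.26 CPM against 83.6, 74.9, 174 and 141 CPM (log2 difference -3.66 ± 0.57). *Oat*, which breaks down ornithine, had 61.5 and 50.9 CPM against 221, 419.8, 525 and 422 CPM. *Glul*, glutamine synthetase, stood at 429 and 531 CPM against 725, 919, 1067 and 1049.5 CPM. The 2 higher genes of 39, beside 8.76% of all genes called higher, belong to gluconeogenesis. *Pck1*, its rate-controlling enzyme, stood at 3158 and 1807 CPM against 1928, 1519.7, 467 and 462 CPM (log2 difference 1.45 ± 0.30). *G6pc*, which releases glucose, had 1007 and 341 CPM against 457, 310.3, 202 and 162 CPM. Both were higher within each genotype although RepB-/- 2 had more than WT 1, and neither was called without the genotype term. *Fbp1*, of the same pathway, had a log2 difference of 0.41 and no call. *Tat*, which comes on at birth, stood at 1009 and 141 CPM against 704, 1274, 1102 and 751 CPM, with WT 1 alone low and no call. In all 6 fits with 1 library left out, *Prodh* stayed called, unlike the other calls named. *Ass1*, *Oat*, *G6pc* and *Fbp1* were named after their values had been seen.

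Several genes of fat synthesis from carbohydrate, which mice start at weaning when milk gives way to chow, were low in both H19-high livers. Of 27 genes of the change from suckling to weaning, all tested, 9 were called lower and 2 higher, with a median of -0.05. Over all genes 6.82% were called lower and 8.76% higher. The higher genes of this list were 6 with DESeq2, 1 without WT 1, 1 without WT 2 and 1 without WT 3. *Scd1*, the desaturase of adult liver, stood at 19.6 and 20.1 CPM against 2648, 1326, 1664 and 2136 CPM, a log2 difference of -6.61 ± 0.46. *Fasn*, fatty acid synthase, stood at 46.9 and 36.3 CPM against 226, 133, 639 and 433 CPM. *Acacb*, an acetyl-CoA carboxylase, had 1.14 and 2.58 CPM against 64.6, 30.4, 81.4 and 68.1 CPM. The highest H19-high liver was below the lowest H19-low liver for all 3. *Thrsp*, a regulator of lipogenesis, had 3.01 and 0.577 CPM against 115, 65.8, 206 and 158 CPM. *Mlxipl*, which encodes the carbohydrate-responsive factor ChREBP, had 54 and 76.5 CPM against 256, 314, 311 and 276 CPM. These too did not overlap. *Srebf1*, another regulator of these enzymes, stood at 342 and 259.6 CPM against 159, 101, 395 and 339 CPM with no call. Genes of fat burning that are given here were higher or had no call. *Bdh1*, an enzyme of ketone metabolism, had 572 and 571 CPM against 321, 245, 231 and 276 CPM. *Vnn1*, a pantetheinase gene of the fasted liver and the other gene called higher, had 27.1 and 51.3 CPM against 7.13, 5.66, 3.49 and 2.6 CPM. *Cpt1a*, which admits fatty acids to mitochondria, stood at 482 and 555 CPM against 323, 397, 169.5 and 167 CPM with no call. The calls of *Scd1*, *Acacb*, *Thrsp*, *Mlxipl* and *Vnn1* held in each fit that left out 1 library, and the other calls given here were lost in at least 1 such fit. *Acacb*, *Thrsp*, *Mlxipl*, *Srebf1*, *Bdh1* and *Cpt1a* were named after their values had been seen.

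Most liver transcription factor genes had no call. Of 39 genes, all tested, 2 were called higher and 10 lower, with a median of -0.34. The higher genes were 1 without the genotype term, 0 without RepB-/- 1, 1 without RepB-/- 2, 0 without WT 1, 1 without WT 2 and 1 without WT 3, and the lower genes 3 without RepB-/- 1, 3 without WT 1, 4 without WT 2 and 4 without WT 3. *Hnf4a*, the central hepatocyte factor, stood at 361 and 341 CPM against 622, 637, 646 and 551 CPM (log2 difference -0.81 ± 0.20). *Nr1i3*, which encodes the drug sensor CAR, stood at 43.3 and 66.3 CPM against 124, 114, 199.8 and 259 CPM, and the overlapping *Tomm40l* may share its reads. *Nr1h4*, the bile acid sensor FXR, was at 43.6 and 41 CPM against 76.6 to 117 CPM. *Zbtb20*, a repressor of *Afp* after birth, stood at 21.4 and 16.4 CPM against 59.4, 80, 48.6 and 53.2 CPM. *Zhx2*, another repressor of *Afp*, had 8.93 and 7.75 CPM against 17.3, 15, 13.7 and 14.2 CPM. Both were lower in the H19-high livers, as were *Hnf4a*, *Nr1i3* and *Nr1h4*, and a link to *Afp* was not tested. *Bcl6*, a repressor of female-biased genes in males, had 5.52 and 8.42 CPM against 16.4, 14.4, 56.3 and 44.8 CPM. *Cebpa* stood at 22.5 and 260.0 CPM against 310.3, 293, 295 and 277 CPM, low in RepB-/- 1 only and without a call. The 2 higher genes of 39, beside 8.76% of all genes called higher, belong to the circadian output, and collection times are not given. *Dbp* had 17.2 and 10.1 CPM against 3.42, 8.37, 0.854 and 1.31 CPM and *Tef* 73.5 and 51.7 CPM against 22.1 to 31.6 CPM. *Afp* kept its call with every single library left out, and every other call named was lost in 1 or more. *Nr1h4*, *Bcl6* and *Tef* were named after their values had been seen.

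Both zones of the lobule had more genes called lower than higher. Of 25 pericentral genes 3 were called higher and 9 lower (median -0.61), and of 23 periportal genes 2 were higher and 8 lower (median -0.69). Over all genes 8.76% were called higher and 6.82% lower, so the higher counts of both zones were near the share of all genes. The periportal count of lower genes was 4 without RepB-/- 1, 2 without WT 1, 3 without WT 2 and 3 without WT 3, and the pericentral one 3 without RepB-/- 1, 1 without WT 1, 5 without WT 2 and 5 without WT 3. Among pericentral genes the glutamate carrier *Slc1a2* stood at 7.88 and 10.7 CPM against 56.9, 149.9, 79.3 and 49.3 CPM. In contrast *Slc13a3*, a carboxylate carrier, was higher at 242 and 275 CPM against 42.6, 47.2, 45.1 and 39.8 CPM. The Wnt targets *Axin2*, *Lgr5* and *Rnf43*, which mark the pericentral zone, had log2 differences of -0.31, 0.56 and 0.12 and no call. Among periportal genes *Cdh1*, E-cadherin, was higher at 114 and 111 CPM against 62.8 to 72.6 CPM. *Hal*, which breaks down histidine, was lower at 123 and 86.3 CPM against 259 to 506 CPM. Leaving out any 1 library kept the call of *Slc13a3*, unlike the other calls named. *Slc1a2*, *Axin2*, *Lgr5*, *Rnf43*, *Cdh1* and *Hal* were named after their values had been seen.

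Sex-biased liver genes, which adult patterns of growth hormone set after puberty, were in part low in the H19-high livers. Of 31 genes 30 were tested, 10 were called lower and none higher, with a median of -2.59. Without RepB-/- 2, the library with Y-linked counts, 17 were called lower and the median was -2.84. By setting, the count was 18 with DESeq2, 2 without RepB-/- 1, 17 without RepB-/- 2, 4 without WT 1, 6 without WT 2 and 6 without WT 3. The 14 genes known as female-biased summed to 1353 and 996 CPM against 110.2, 4359.7, 9007 and 9948 CPM, so both H19-high livers lay above RepB-/- 2 and below the other livers. Of these 14, 2 were called lower, and 7 without RepB-/- 2. The 17 genes known as male-biased summed to 1014 and 1102 CPM against 8614, 3184, 1977 and 2367 CPM, lowest in the H19-high livers. Of the 16 tested, 8 were called lower, and 10 without RepB-/- 2. This split was made after the values were seen.

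Among female-biased genes *Cyp3a41a*, with a near-identical copy, stood at 12 and 7.86 CPM against 6.75, 1092, 2827 and 2752 CPM. *Cyp2a4* had 3.89 and 3.38 CPM against 16.1, 939, 535 and 730.2 CPM. The H19-high livers were thus near or below RepB-/- 2. *Sult3a1* had 0 counts in both H19-high livers against 0.597, 48, 103 and 79 CPM (at least 918-fold lower than their mean). In contrast *Cux2*, a female-biased repressor, stood at 26.9 and 24 CPM against 0.577, 9.45, 21.4 and 25.3 CPM, level with WT 2 and 3. Among male-biased genes *Cyp4a12a* stood at 0.118 and 0 CPM against 789, 97.5, 40.7 and 6.46 CPM. *Hsd3b5*, a steroid dehydrogenase, had 0.924 and 0.355 CPM against 109.9, 1.49, 6.26 and 30.2 CPM. *Elovl3*, a fatty acid elongase, had 0 counts in both H19-high livers and 173, 2.07, 2.1 and 2.01 CPM in the others (at least 712-fold lower than their mean, and at least 32.8-fold without RepB-/- 2). *Cyp2d9* stood at 193 and 187 CPM against 1744, 338, 75.8 and 293 CPM. *Gstp1*, a glutathione transferase, had 208 and 213 CPM against 2053, 316, 222 and 288 CPM. For both, the H19-high livers were in or near the range of RepB-/- 3, WT 2 and WT 3. *Cyp2b9*, a female-biased P450, stood at 104 and 118 CPM against 7.5, 264, 785 and 459 CPM. Of the genes named here only *Cyp2a4*, *Sult3a1* and *Cyp4a12a* were called, all lower, and the others had no call. Each call named here was lost without at least 1 library, with its direction kept. *Cyp3a41a*, *Cyp2a4* and *Elovl3* were named after their values had been seen.

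**Figure D5:**
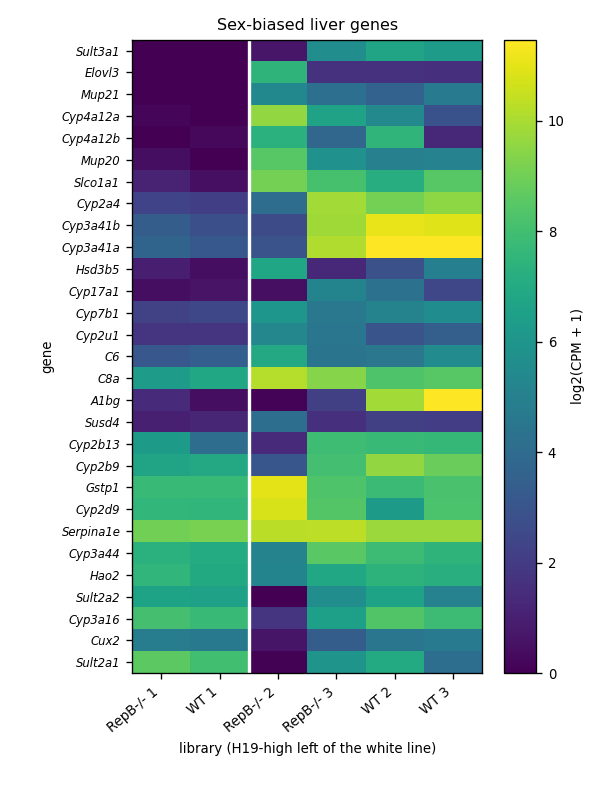
Log2(CPM + 1) by colour of 29 of the 30 tested sex-biased genes (rows, ordered by log2 difference) in the 6 liver libraries (columns), H19-high livers left of the white line. RepB-/- 2 has the reverse pattern of the other H19-low livers, high for male-biased Cyp4a12a and Elovl3 and low for female-biased Cyp3a41a and Cyp2a4, and the H19-high livers are below RepB-/- 3, WT 2 and WT 3 for all 4.

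The protein-coding genes with the largest log2 differences among those called higher, with at least 5 CPM and no overlap, were led by the pancreatic amylase genes *Amy2a1* to *Amy2a5*. These near-identical copies summed to 217 and 93.1 CPM against 0, 0, 0 and 0 CPM. *Amy2a3* stood at 58.6 and 25.3 CPM (at least 581-fold higher) and the pancreatic lipase relative *Pnliprp1* at 11 and 27.3 CPM against 0 counts (at least 265-fold higher). Other pancreatic genes were absent or opposite. *Prss1*, *Prss2*, *Cpb1*, *Pnlip* and *Ins1* had 0 counts in all 6 livers, and *Cpa1* and *Ctrb1* at most 2. *Cela1*, an elastase, was lower in the H19-high livers at 6.33 and 4.46 CPM against 35.7, 22.7, 42.2 and 50.1 CPM. Of 28 genes of neighbouring organs 7 were tested, 2 called higher and 1 lower. Next among the higher genes was *Stfa2*, a cysteine protease inhibitor of myeloid cells, at 16.4 and 1.24 CPM against 0 (at least 122-fold higher). The 8 largest among the lower genes were 7 *Mup* genes and *Gm21320*, which lies between them. Those at 0 in every library of 1 set passed the count filter only through the other set. All were picked for a large difference without overlap, so calls that they kept are a description and no support. In all 6 fits with 1 library left out, *Amy2a3*, *Pnliprp1*, *Amy2a1*, *Amy2a5*, *Gm21320*, *Amy2a2* and *Amy2a4* stayed called, and every other call named was lost in 1 or more. *Prss1*, *Prss2*, *Cpb1*, *Pnlip*, *Ins1*, *Cpa1* and *Ctrb1* were named after their values had been seen.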

How the data were processed

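The 6 liver libraries were analysed. The 6 brain and 6 MEF libraries were not analysed here. The authors deposited whole-number counts per gene for each liver library, without normalization, with GRCm38 coordinates for 51826 genes, and 12 other per-library columns of the table were not used. The submitters' processing notes name Trim Galore 0.4.1, STAR 2.7.0 and HTSeq 0.12.4, and the paper names Cutadapt and Hisat2, so the aligner of the liver reads is uncertain. The paper states that its mRNA libraries were stranded. Whether counting used strand is not given in the sources used here, so reads of overlapping genes cannot be told apart, and reads of near-identical copies may have been split or dropped.

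Libraries were grouped by their *H19* count, with limits of 10000 and 1000. Counts were fitted with edgeR 4.0.16 in R 4.3.3 (TMM, filterByExpr, quasi-likelihood, genotype letter as covariate, 3 residual degrees of freedom, biological coefficient of variation 33.6%), with Benjamini-Hochberg adjustment over 17030 genes. The filter used the *H19* sets as groups. Genes at 0 in the H19-low livers, such as *Rag1*, *Igll1* and the amylase genes, passed it only through the H19-high livers. Genes at 0 in the H19-high livers, such as *Gm21320*, *Mup10* and *Ighg1*, passed it only through the H19-low livers. The fit was tested on simulated data. Where all libraries of a set had 0 counts, a fold is a lower bound against 3 counts a library, and it covers counting error only. CPM values are not divided by gene length, so levels are compared between libraries and not between genes.

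Alternatives were a replicate block, DESeq2 1.42.0, median-of-ratios factors, TMM without erythroid and the 20 most abundant genes, no filter, no genotype term, a 2-fold limit, calls by no overlap, and leaving out each library. An interaction of genotype and *H19* set was added after the data had been seen.

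The members, the 22 lists and the genes named were chosen with earlier results of these data known. Named genes were 60 fixed by role, the tested gene with the highest and the lowest log2 difference of each list, the 8 protein-coding genes with the largest and the 8 with the smallest log2 difference among called genes with at least 5 CPM and no overlap, and *Xist* with 4 Y-linked genes. Some of these genes are not reported here. Others are said to be named after their values had been seen. Promoters were taken from RefSeq. Python 3.11.15 with pandas 2.3.3 summarised the fits, and matplotlib 3.10.9 drew the plots.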

Additional observations from a re-analysis of the deposited data

Results flagged for a closer look

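Among the 4 H19-low livers, 126 named genes were checked for a library far from the others (Dixon's ratio over its critical value). For independent, normally distributed values chance gives this in about 1 of 20 genes. The genes checked include *Xist*, Y-linked genes and genes picked by their values, and many vary together. The number of flags is therefore not compared with that rate. Of the 126 genes, 18 were flagged, 11 for RepB-/- 2, 6 for RepB-/- 3, 1 for WT 2 and 0 for WT 3. RepB-/- 2 stood out in sex-linked and sex-biased genes. *Xist* was lowest there at 0.0796 CPM, and the Y-linked *Ddx3y*, *Eif2s3y*, *Kdm5d* and *Uty* were highest at 30.4, 33.2, 14.1 and 8.72 CPM. The male-biased genes *Cyp2d9*, *Cyp4a12a*, *Mup20* and *Gstp1* were highest there at 1744, 789, 354 and 2053 CPM, as was *Mup7* at 936 CPM, and *Prlr*, which is female-biased in liver, was lowest at 139 CPM.

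RepB-/- 3 was highest for *H19* (12.5 CPM), *Cyp2e1* (6414 CPM), *Slco1a4* (54.6 CPM), *Cyp4a31* (107 CPM) and the endothelial gene *Plvap* (127 CPM, with reads possibly shared with *Gtpbp3*), and lowest for the acute-phase gene *Saa2* (11.8 CPM). WT 2 was lowest for the replication gene *Mcm5* (3.03 CPM).

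The difference between the *H19* sets was compared between genotypes by the interaction term of edgeR, with 2 residual degrees of freedom, and p-values that measure only the spread between these libraries. It called 2 genes, and 912 of 17030 had an unadjusted p under 0.05. *Hamp2*, a hepcidin gene of iron control, stood at 7.51 CPM in RepB-/- 1 against 0.0796 and 0.117 CPM in RepB-/- 2 and 3, and at 0.999 CPM in WT 1 against 77.7 and 95.7 CPM in WT 2 and 3, a difference of log2 differences of 12.69. *Mir8114*, which overlaps *Glul*, stood at 20.5 CPM against 41.2 and 37.0 CPM in RepB-/- and at 26.2 CPM against 0.0259 and 0.0212 CPM in WT, a difference of -10.91. Both rest on 1 H19-high liver of each genotype. For *Hamp2*, RepB-/- 1 lay above its genotype's other livers and WT 1 below.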

How the results depend on the processing

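The counts of genes called higher and lower (1491 and 1161) were 2237 and 1903 with DESeq2 and 4041 and 3561 by no overlap of the libraries. Both genotypes carry the numbers 1 to 3. Same-numbered libraries correlated at 0.740, 0.418 and 0.398 after removal of genotype means, and 2 of 6 were closest to the other genotype's library of their own number, but number 1 is the H19-high set. Within the H19-low set, the difference between numbers 2 and 3 in RepB-/- and that in WT correlated at -0.103. RepB-/- 2 holds the Y-linked counts, so this value cannot decide whether equal numbers pair the samples. They were not treated as pairs in the main fit. The replicate block gave 773 lower and 1216 higher, and 23 in place of 11 higher proliferation genes. With each library left out in turn they ranged from 199 to 1430 higher and from 202 to 1281 lower, lowest without WT 1. Without RepB-/- 2 they were 1054 and 949. Median-of-ratios factors, TMM without erythroid genes, no filter, no genotype term and a 2-fold limit kept both counts within 1.5 times. List medians moved by less than the spread between the H19-low livers in 240 of 264 comparisons and beyond it in 23. The median of the macrophage list (0.27) was 0.68 without RepB-/- 1 and turned to -0.35 without WT 1. No called gene among those named for single values changed sign. Of 265 called genes named or listed, 165 lost the call without WT 1, 152 without RepB-/- 1, 107 without WT 3, 97 without WT 2, 39 without RepB-/- 2 and 27 without RepB-/- 3. The causes were not tested. A fit with 1 library in the H19-high set assumes that it varies like the others. The same-sign share within genotypes was 74.4% at a prior count of 0.5 and 74.3% at 5. The block changed the call of 13 of the genes named for single values, 10 of them losing it. Depth limits little here, since a gene at 0 counts in both H19-high livers can hold at most about 0.0628 CPM.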

Other observations

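The 2 H19-high livers differed from each other in blood and acute-phase genes, which were named after their values had been seen. The eosinophil granule genes *Prg2* and *Epx* stood at 153 and 1.18 CPM and 42 and 0.311 CPM in RepB-/- 1 and WT 1, against at most 0.529 and 0.117 CPM in the H19-low livers. *Ppp1r3g*, a glycogen-targeting subunit, stood at 65.5 and 2.82 CPM against 0.856, 0.35, 0 and 0 CPM. The acute-phase genes went the other way. *Saa3* stood at 1.91 and 157 CPM against 8.32, 4.99, 4.22 and 8.85 CPM, and *Saa1* at 2.97 and 103 CPM against 113, 35.7, 58.5 and 61 CPM, while *Orm1* was low in both H19-high livers at 1.16 and 24.4 CPM against 924, 733, 589.7 and 671 CPM and *Orm2* in RepB-/- 1 only, at 0.334 and 72.8 CPM against 15.5, 23.6, 22.5 and 25.8 CPM. Circadian genes differed between the sets as well: *Per3*, which overlaps *Camta1*, stood at 25.6 and 20.6 CPM against 4.1, 4.84, 3.13 and 3.03 CPM, and *Arntl*, whose RNA cycles in the opposite phase, at 14.7 and 22.3 CPM against 28.7, 25, 41 and 39.7 CPM. The times of collection are not given.

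A few genes fell into separate levels that followed neither the *H19* set nor the genotype, and were picked after their values had been seen. *Rps2*, a ribosomal protein gene, stood at 313 and 19.8 CPM against 332, 21.4, 265 and 25.6 CPM. *B3galt1* stood at 4.74 and 31 CPM against 5.16, 35, 4.04 and 34.2 CPM, low where *Rps2* was high. *Apoc2* stood at 15.9 and 259 CPM against 216, 238, 20.9 and 27.3 CPM, while *Gm44805*, which overlaps it, stood at 115 and 5.33 CPM against 4.92, 2.77, 134 and 102 CPM. The class II gene *H2-Eb1* stood at 0.531 and 12.2 CPM against 0.299, 5.6, 14.2 and 41.3 CPM.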
